A study of Drosophila melanogaster with 12 samples.

Results

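The genes described here are the 47 genes of Drosophila melanogaster whose FlyBase symbol starts with Acp or Sfp followed by a digit, out of 16524 gene rows counted in pharate guts and 15651 gene rows in adult guts. Of these, 19 carry the prefix Acp (accessory gland protein) and 28 the prefix Sfp (seminal fluid protein). All 47 had a row in each count table. The symbol rule also took in Acp1 and Acp65Aa, which are named for the adult cuticle and not for the accessory gland. They were kept in the 47 and are described apart, which left 45 genes of seminal fluid.

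The male accessory glands are paired secretory glands of the reproductive tract. Their proteins are passed to the female with the sperm at mating, where they alter egg laying, receptivity, sperm storage and the immune response. The ejaculatory duct and ejaculatory bulb, further down the tract, add proteins of their own to the seminal fluid and the mating plug. None of these tissues is part of the gut, the tissue named on the labels.

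Guts of males mutant for the X-linked zinc finger gene Hinfp were compared with guts of control males. In pharate males, which are fully formed adults still in the pupal case, guts with Malpighian tubules came from the control strains FRT19A and W1118, the point mutant Hinfp3 and the deletion mutant Hinfp2, with 2 libraries each. Adult intestines gave 1 library each of an FRT19A control, the Hinfp2 mutant, Hinfp2 males with tub-Gal4 driving UAS-Hinfp-HA and Hinfp2 males with tub-Gal4 driving UAS-His1-HA. The last 2 genotypes, called the Hinfp rescue and the His1 rescue below, express the zinc finger protein or the linker histone in all tissues where the tubulin driver is active. Each sample pooled about 50 guts of animals kept at 25 °C, and the series text gives an age of 5 to 6 days for the control and 8 to 9 days for mutant and rescue animals. It does not make clear whether these ages hold for the pharate set. Where they hold, age and genotype cannot be told apart. In every pharate group replicate 1 was titled SE and replicate 2 PE, a tag the labels do not spell out. The labels name no separate cultures behind the paired libraries of a genotype, and a p-value here reflects only how these samples spread, possibly for technical reasons.

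Gene counts were 21924226 to 28740669 per pharate library and 17991664 to 20271512 per adult library. Levels are given as CPM, a gene's counts scaled to a common library total, and 1 count was worth 0.0348 to 0.0456 CPM in the pharate libraries. The labelled tissue was seen in every library: 14 enterocyte genes summed to 4565 to 15586 CPM in pharate guts and 17473 to 45646 CPM in adult guts, and 15 Malpighian tubule genes to 3075 to 4762 CPM over all 12 libraries. Hinfp itself stood at 9.39, 13.5, 13.4 and 15.5 CPM in the control libraries, at 8.50 and 9.44 CPM in point mutants and at 6.41 and 5.66 CPM in deletion mutants.

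Seminal fluid RNA was abundant in some libraries and close to absent in others, and the split did not follow the Hinfp genotype. The 47 genes summed to 5.05 and 7.07 CPM in FRT19A replicates 1 and 2. In the other control strain, W1118, they summed to 945.5 and 750.2 CPM. The point mutant held 385.8 and 241.0 CPM, and the deletion mutant 9.98 CPM in replicate 1 and 636.6 CPM in replicate 2. Thus 5 pharate libraries were high and 3 were low, and the deletion mutant had a library on each side, 63.8-fold apart. Controls averaged 427.0 ± 492.5 CPM and mutants 318.3 ± 262.6 CPM (SD, n = 4 each), so the spread within each class was far larger than the difference between them. In a bulk sample, fewer cells of a type and less RNA per cell cannot be told apart.

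Without the cuticle genes Acp1 and Acp65Aa the low libraries were lower still. The 45 seminal fluid genes summed to 72 counts, or 2.51 CPM (Wilson 95% interval 1.99 to 3.15), in FRT19A replicate 1 and to 90 counts, or 3.35 CPM (2.73 to 4.12), in FRT19A replicate 2. Deletion mutant replicate 1 held 113 counts, or 4.53 CPM (3.77 to 5.45). These intervals cover counting error only. In those 3 libraries 22, 16 and 18 of the 45 genes had no count at all, and at this depth 0 counts allowed a level of up to 3 counts. In the 5 high libraries 33 to 41 of the 45 genes had at least 10 counts, against 0 to 3 genes in the 3 low ones.

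**Figure D1:**
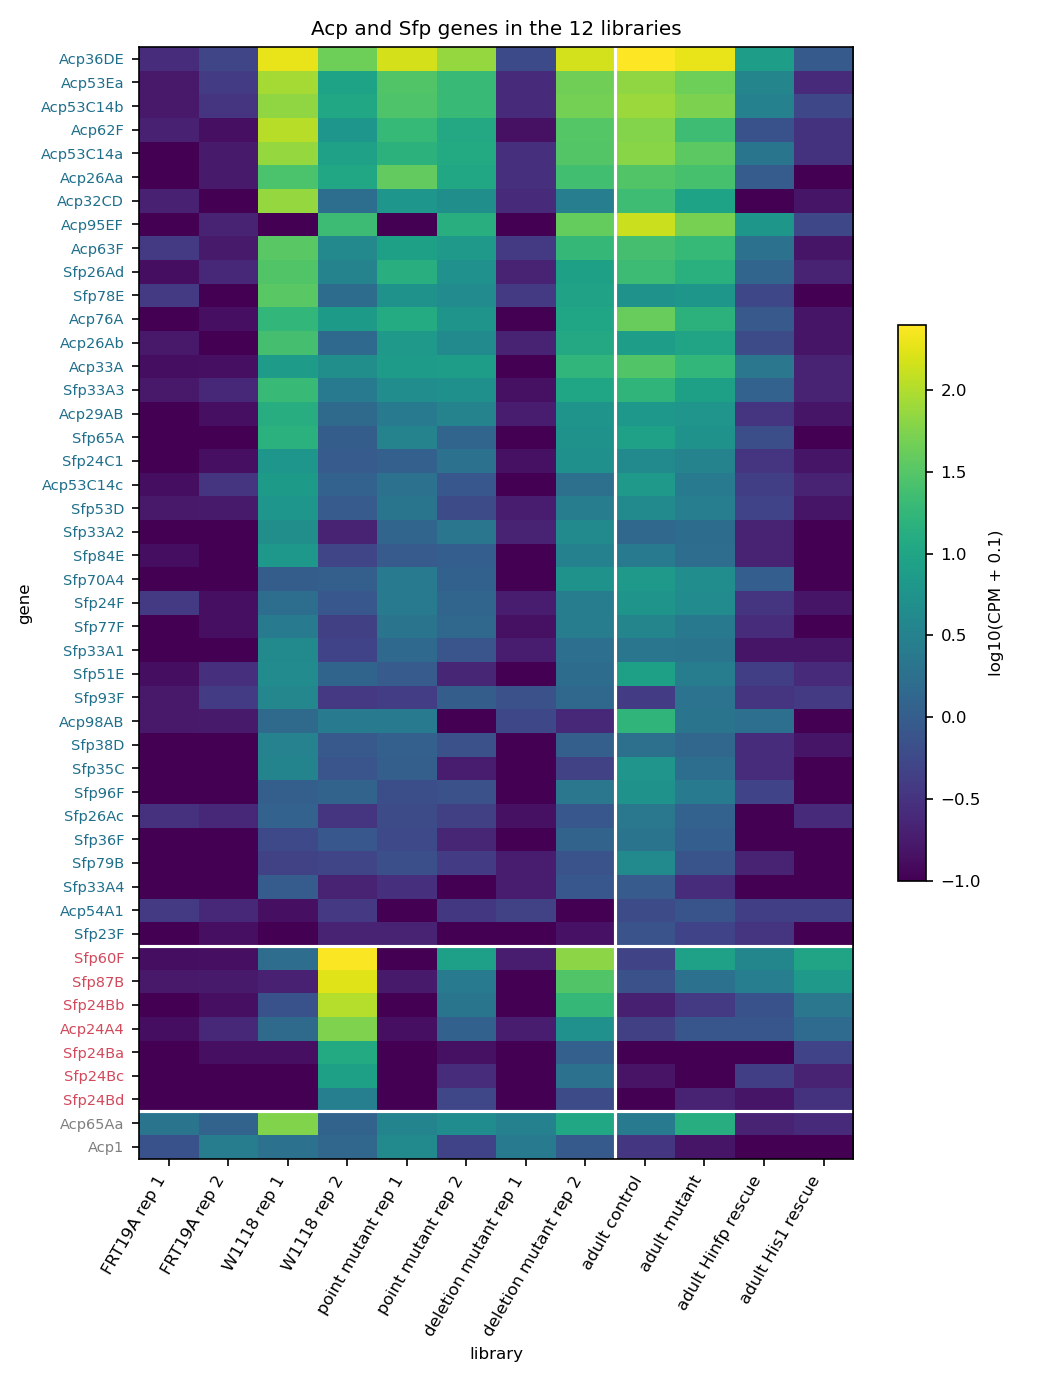
Level of each of the 47 Acp and Sfp genes (rows) in the 12 libraries (columns), as log10(CPM + 0.1). Blue names are 38 seminal fluid genes, red names the 7 whose highest pharate level was in W1118 replicate 2, and grey names the cuticle genes, and the columns of FRT19A, of deletion mutant replicate 1 and of the His1 rescue are dark over most of the blue names.

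Acp36DE, a large glycoprotein needed for sperm storage, led the blue-named genes of that heat map. It stood at 0.174 and 0.409 CPM in FRT19A, 196.0 and 45.2 CPM in W1118, 153.6 and 73.4 CPM in point mutants, and 0.481 and 147.2 CPM in the deletion mutant. Its lowest high library exceeded its highest low library, and mutants and controls overlapped. The log2 fold change of mutants over controls was 0.78 (SE 1.90, edgeR quasi-likelihood test, Benjamini-Hochberg adjusted p = 0.826).

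Acp26Aa, or ovulin, a prohormone-like protein that raises ovulation in the mated female, had counts of 0 and 2 in FRT19A, 757 and 276 in W1118, 986 and 250 in point mutants, and 5 and 507 in the deletion mutant. Acp62F, a protease inhibitor of the seminal fluid, had counts of 3 and 1, 2972 and 159, 482 and 258, and 1 and 696 in the same order. Acp53Ea, from a group of small paralogous genes on arm 2R, had counts of 2 and 8, 2397 and 241, 774 and 454, and 4 and 1010. All 3 genes were therefore high and low in the same libraries as Acp36DE, and within W1118 all 3 were higher in replicate 1.

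Members of other protein classes had the same high and low libraries. Acp76A, of the serpin class of protease inhibitors, had counts of 0 and 1 in FRT19A, 489 and 186 in W1118, 316 and 131 in point mutants, and 0 and 226 in deletion mutants. Acp29AB, a lectin-like protein that acts in sperm retention, had counts of 0 and 1, 365 and 37, 60 and 76, and 2 and 122. Acp32CD was the most uneven between the W1118 libraries of these, with 3 and 0, 2037 and 42, 153 and 114, and 4 and 60 counts. Acp98AB was an exception, with 2 and 2, 39 and 62, 61 and 0, and 11 and 3 counts, so that its point mutant and deletion mutant replicates 2 were low. Among other members that departed from the pattern, Acp54A1 had 8 and 4, 1 and 7, 0 and 6, and 9 and 0 counts. Sfp93F had 2 and 8, 102 and 7, 8 and 21, and 15 and 28 counts.

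Sums over some genes that lie side by side on the chromosome showed this pattern. The 5 genes within 7201 bases on arm 2R (Sfp53D, Acp53C14a, Acp53C14b, Acp53Ea and Acp53C14c) summed to 0.244 and 0.893 CPM in FRT19A, 239.6 and 30.4 CPM in W1118, 78.5 and 53.0 CPM in point mutants, and 0.601 and 130.3 CPM in the deletion mutant. Sfp26Ac, Acp26Ab and Acp26Aa, within 9547 bases of arm 2L (BDGP6 2L, 5884350 to 5893896), summed to 0.278 and 0.223, 53.0 and 12.1, 45.6 and 15.2, and 0.361 and 35.0 CPM. Both sums had the same 5 high and 3 low libraries. Sfp26Ac by itself did not, at 0.230 CPM in W1118 replicate 2 beside 0.209 CPM in FRT19A replicate 1. Over the genome, 24 of the 47 genes lay on 2L, 8 on 2R, 9 on 3L and 6 on 3R. None lay on the X chromosome, which held 15.97% of the 13241 protein-coding genes counted. The members were also short, with a median of 468 exonic bases beside 1757 bases for the protein-coding genes of the table.

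Because of those lengths the order of the genes by transcript abundance was compared on the deposited TPM scale, which divides by length. By mean TPM over the 8 pharate libraries Sfp60F came first at 133, followed by Sfp87B at 88.2, Acp53Ea at 87.1 and Acp62F at 80.9 TPM. W1118 replicate 2 set the first places: without it, a choice made after seeing the data, Sfp60F averaged 36.1 TPM and Sfp87B 15.8 TPM, and Acp53Ea came first at 95.8 TPM. Acp36DE, first by CPM, was eighth at 44.1 TPM over all 8 libraries. Each of these genes ranged over more than its mean (Sfp60F from 0 to 812 TPM, Acp53Ea from 0.287 to 359.8 TPM). Whether neighbours in this order differed within libraries was not tested. At the other end Acp54A1 averaged 0.906 TPM and Sfp23F 0.192 TPM. These last were the 2 members that did not pass the filter on low counts, which left 45 members, the cuticle genes included, for the tests. The 17 Acp genes of the seminal fluid had a median of 24.3 TPM and the 28 Sfp genes a median of 4.39 TPM.

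No member passed the test between the 4 mutant and the 4 control libraries. Of 45 tested, 0 were higher and 0 lower by edgeR with Benjamini-Hochberg adjustment at 0.05, where 10.9% of all 13244 genes were called. None reached an unadjusted p under 0.05 either (26.0% of genes). DESeq2 called 0 members, while it called 1207 of all genes higher and 1562 lower. The median log2 fold change of the members was -0.11, beside -0.01 over all genes, and 20 of the 45 were positive. No member had all mutant libraries above or all below the controls, whereas 10.3% of genes had them above and 11.7% below. Sfp24Ba, a gene of a small 2L cluster described below, had the smallest p (log2 -3.62, SE 2.49, edgeR adjusted p = 0.427).

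The median of that comparison turned on the model and on single libraries. With the replicate number as a block and all libraries kept, it was 0.21, and 29 of the 45 members were positive. In fits with no block, it was 2.01 without W1118 replicate 1 and -0.70 without deletion mutant replicate 2. Without both FRT19A libraries, a choice made after seeing that both stood near 0, it was -1.10. None of these 3 fits called a member. Within the SE libraries the median was -1.51 over 35 members and 0 members and 0 genes were called. Within the PE libraries it was 2.16 over 41 members, and Acp65Aa, Sfp33A2 and Sfp93F were called higher (log2 2.65, 5.54 and 1.82, edgeR adjusted p = 0.0211, 0.0174 and 0.0338), where 22.7% of genes were.

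The control strains stood far apart in these genes. Both W1118 libraries lay above both FRT19A libraries in 38 of the 45 members tested, and 13.7% of all genes showed this. The 7 exceptions were the cuticle genes Acp1 and Acp65Aa together with Acp95EF, Sfp24Ba, Sfp24Bc, Sfp24Bd and Sfp93F. The median log2 difference was 7.65. For Acp36DE it was 8.38 (SE 2.67, unadjusted p = 0.0212), for Acp26Aa 8.59 (SE 2.64, unadjusted p = 0.0186) and for Acp62F 9.22 (SE 3.15, unadjusted p = 0.0279), all from edgeR with an adjusted p = 1. The edgeR fit of 4 groups called 0 members and 0% of genes after adjustment in this comparison, while 24 members and 4.58% of genes had an unadjusted p under 0.05. DESeq2 called 19 members higher, and 1.37% of genes. With the replicate block, which the pairing of the libraries allows, 21 members (10.4% of genes) had an unadjusted p under 0.05. The edgeR count of 24 was far lower without either FRT19A library and without W1118 replicate 1, fits that leave 1 library in a group. The median stayed between 6.13 and 8.37 whichever library was left out.

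Against the same FRT19A libraries the point mutant had a member median of 6.00 and the deletion mutant one of 6.64. These 3 comparisons share the FRT19A libraries, so their values are given side by side and not as support for each other. Both point mutant libraries lay above both FRT19A libraries in 34 of 45 members (28.3% of genes), and both deletion mutant libraries in 19 of 45 (26.4% of genes). Most of these 19 had only a few counts in deletion mutant replicate 1. Sfp60F had 2 there beside 1 and 1 in FRT19A, and Sfp24C1 had 1 beside 0 and 1. edgeR called 0 members and 0% of genes in either comparison. At an unadjusted p under 0.05 there were 18 members for the point mutant (13.9% of genes) and 17 for the deletion mutant (14.7% of genes). With the replicate block they were 10 (32.0% of genes) and 9 (33.4% of genes), so that the members' share, above that of the table without the block, was below it with the block. Without either FRT19A library, which leaves 1 library in that group, the unblocked counts were lower for members and for all genes. The point mutant median was 5.92 without FRT19A replicate 1 and 6.52 without replicate 2, and the deletion mutant median 6.63 and 6.72. Without deletion mutant replicate 2 the deletion mutant median was 0 and without replicate 1 it was 7.63. DESeq2 called 17 members higher in the point mutant (4.47% of genes) and 19 in the deletion mutant (4.58% of genes). With the replicate number as a block, edgeR called Sfp24Ba, Sfp24Bb and Sfp60F higher in the deletion mutant (4.02% of genes). These calls rest on deletion mutant replicate 2, with 22, 395 and 1423 counts, beside 0, 0 and 2 counts in replicate 1. All 3 genes also belong to a group chosen below for its peak in W1118 replicate 2.

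No difference between the 2 alleles passed the test in these genes. Between deletion and point mutant 0 members and 0% of genes were called by edgeR, 0 members had an unadjusted p under 0.05 (0.257% of genes; 4 members and 1.43% of genes with the replicate block), and the median log2 difference was 0.19. It became -5.78 without deletion mutant replicate 2, -0.12 without point mutant replicate 2 and 1.12 without deletion mutant replicate 1, so a single library set its sign.

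**Figure D2:**
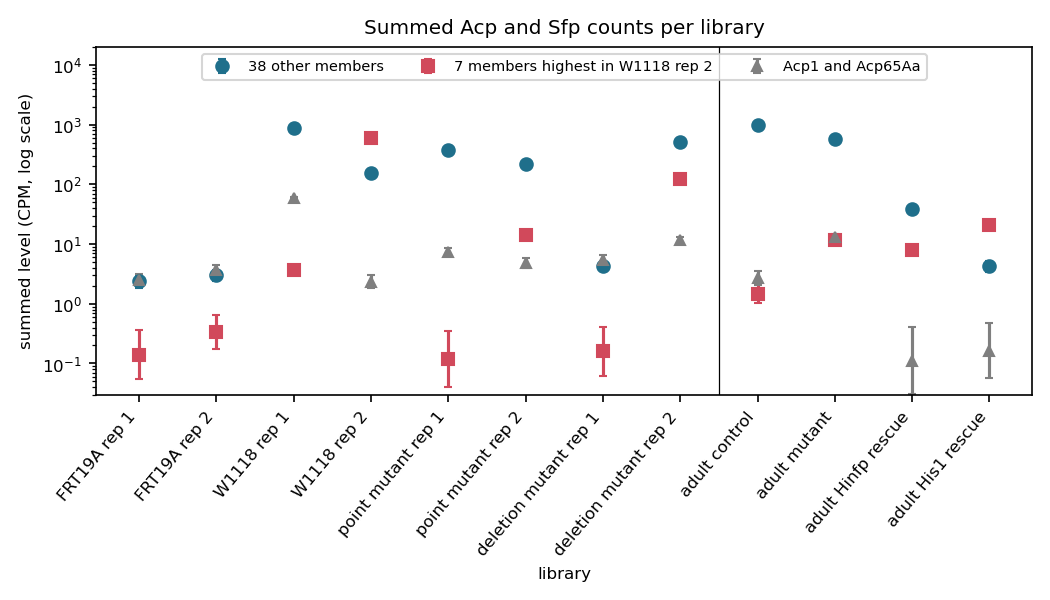
Summed CPM (log scale) in each of the 12 libraries for 38 seminal fluid genes (circles), the 7 highest in W1118 replicate 2 (squares) and the cuticle genes Acp1 and Acp65Aa (triangles), with Wilson 95% intervals of counting error. The circles fall to 2.37, 3.01 and 4.37 CPM in both FRT19A libraries and deletion mutant replicate 1, and the squares exceed the circles only in W1118 replicate 2 and the adult His1 rescue.

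The 2 W1118 libraries had similar sums but were made up of different genes. In replicate 1 Acp36DE, Acp62F and Acp53Ea led and held 41.1% of the member counts. In replicate 2 Sfp60F, Sfp87B and Sfp24Bb led with 68.8%. Across the 47 genes log2(CPM + 0.5) of the 2 libraries had a Pearson r of 0.06, given as a description of libraries that share a genotype. The 2 point mutant libraries had an r of 0.74 across the same genes. Point mutant replicate 2 and deletion mutant replicate 2 had an r of 0.93, the highest of the library pairs compared.

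A group of 7 genes, chosen after their values were seen, led replicate 2. Acp24A4, Sfp24Ba, Sfp24Bb, Sfp24Bc, Sfp24Bd, Sfp60F and Sfp87B all had their highest pharate level in W1118 replicate 2. Their sum was 0.139 and 0.335 CPM in FRT19A, 3.70 and 594.3 CPM in W1118, 0.117 and 14.4 CPM in point mutants, and 0.160 and 121.3 CPM in the deletion mutant. The other 38 seminal fluid genes summed to 2.37 and 3.01, 883.2 and 153.7, 378.3 and 221.8, and 4.37 and 503.6 CPM in the same order. Point mutant replicate 1 was thus high for the 38 genes and near 0 for the 7, and W1118 replicate 2 was the only pharate library in which the 7 exceeded the 38. Over the 38 genes alone the r between the W1118 libraries was 0.61. The 7 were chosen for their peak in replicate 2, so that the rise in r is no evidence about them, and 0.61 was still the lowest of the 21 library pairs compared.

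Sfp60F and Sfp87B, small secreted proteins found in seminal fluid, carried most of the sum of the 7. Sfp60F had counts of 1 and 1 in FRT19A, 43 and 6229 in W1118, 0 and 194 in point mutants, and 2 and 1423 in the deletion mutant. Sfp87B had counts of 2 and 2, 3 and 4529, 2 and 56, and 0 and 657. Outside FRT19A, replicate 2 was higher than replicate 1 in every group for both genes, which in W1118 their choice had fixed. Of the 7 genes, 4 form a cluster of 2605 bases on 2L (Sfp24Ba, Sfp24Bd, Sfp24Bb and Sfp24Bc, 3667977 to 3670581, minus strand), inside an intron or gap of the opposite-strand gene Drgx. Sfp24Bb had counts of 0 and 1 in FRT19A, 17 and 2722 in W1118, 0 and 46 in point mutants, and 0 and 395 in deletion mutants. Acp24A4 had counts of 1 and 4, 39 and 1440, 1 and 24, and 2 and 112, so it too was highest in W1118 replicate 2. It lies further along that arm (3693184 to 3693905), next to Sfp24C1, which did not share the pattern: Sfp24C1 stood at 6.04 CPM in W1118 replicate 1 and 0.842 CPM in replicate 2.

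**Figure D3:**
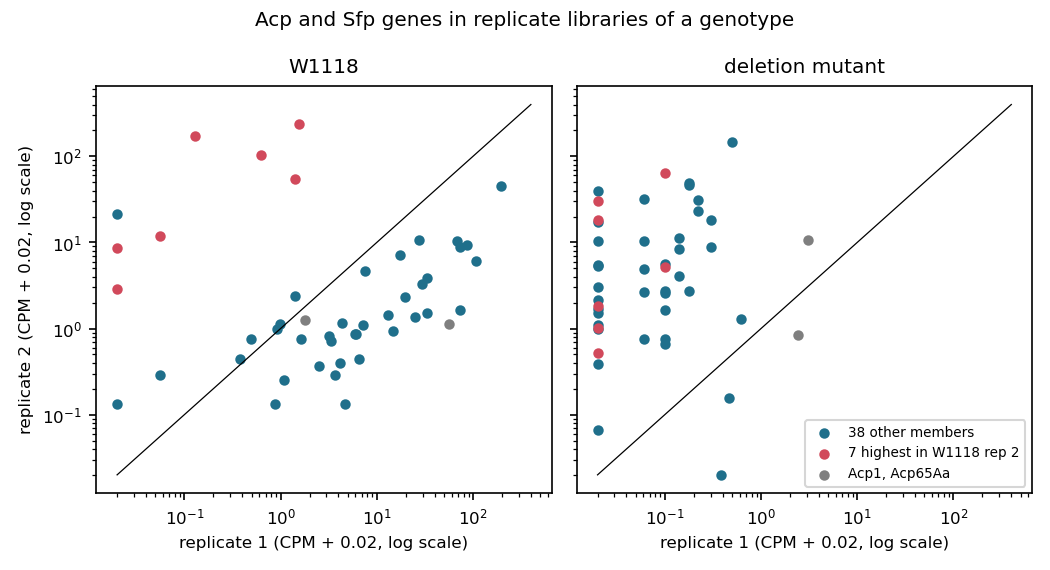
CPM + 0.02 of each member in replicate 2 against replicate 1 (log axes) in W1118 and in the deletion mutant, with the line of equal level. In W1118, 30 of the 38 blue genes were higher in replicate 1. All 7 red genes were higher in W1118 replicate 2, which the choice of these 7 fixed in advance. Over all 45 seminal fluid genes, 30 were higher in W1118 replicate 1 and 15 in replicate 2. In the deletion mutant 36 of the 38 and all 7 were higher in replicate 2.

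The tags SE and PE were compared over all 4 groups, with the group as a covariate. PE libraries were higher for 7 of the 45 members tested and lower for 0, beside 20.1% and 12.5% of all genes, so the share called was not above that of the table. Sfp24Ba had a log2 difference of 7.91 (SE 0.54, edgeR adjusted p = 0.00196), Sfp24Bb one of 8.27 (SE 0.63, edgeR adjusted p = 0.00231) and Sfp60F one of 8.13 (SE 0.87, edgeR adjusted p = 0.00479). The others called were Acp24A4 (5.26), Sfp24Bc (9.08), Sfp87B (9.04) and Acp95EF (11.94). Sfp24Bd missed the threshold at 7.66 (edgeR adjusted p = 0.0610). W1118 replicate 2, which chose the 7 genes above, is itself a PE library, so their calls here are not independent of that choice. Leaving out either W1118 library left 4 members called, Acp24A4, Acp95EF, Sfp24Bb and Sfp60F, which were also called without any other single library. Of all genes, 1970 of 13673 were called higher without W1118 replicate 1 and 1855 of 13774 without replicate 2. The Sfp24Ba call was lost without either W1118 library (edgeR adjusted p up to 0.133). The Sfp87B call was lost in 5 of the 8 such fits (up to 0.119), and that of Sfp24Bc in all 8 (0.0623 or more). Over all members the median PE over SE difference was 0.49, beside 0.05 over all genes.

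Acp95EF, a small secreted peptide gene, was called for another pattern. It had 0 counts in all 4 SE libraries, W1118 and the point mutant included, and 3, 559, 313 and 868 counts in the PE libraries of FRT19A, W1118, the point mutant and the deletion mutant. In adult guts it had 2678, 919, 112 and 8 counts in the control, the mutant, the Hinfp rescue and the His1 rescue. All 243 of its exonic bases (BDGP6 3R, 24228975 to 24229279, plus strand) overlap exons of the opposite-strand gene Spase22-23, a signal peptidase subunit, which stood at 46.9 to 85.5 CPM in those SE libraries. How the authors' counting treated strand is not given in the sources used here, so its values are uncertain, and the part of the overlap in the SE zeros was not tested. Sfp78E shares 134 of 829 exonic bases with CG11248 and Sfp84E 27 of 685 with Os-C, also on opposite strands.

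The cuticle genes followed the seminal fluid genes only in part. Acp65Aa, a cuticle protein of the adult, had counts of 55 and 30 in FRT19A, 1582 and 29 in W1118, 86 and 103 in point mutants, and 76 and 236 in the deletion mutant. Acp1, named as an adult cuticle protein, had counts of 18 and 70, 49 and 32, 102 and 9, and 60 and 18. Acp65Aa was highest in W1118 replicate 1 and next in deletion mutant replicate 2, the leading libraries of the 38 seminal fluid genes, but was not near 0 in FRT19A. In adult guts it had 49, 232, 2 and 3 counts in the control, the mutant, the Hinfp rescue and the His1 rescue, low in both rescues as those genes were. Acp1 stayed between 0.386 and 3.98 CPM in every pharate library. In FRT19A and deletion mutant replicate 1 these genes supplied most of what the symbol rule counted, leading with 1 further gene at 55.9% to 60.6% of the sum.

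Other genes known from the accessory gland and seminal fluid, which the symbol rule leaves out, gave a mixed picture. SP, the sex peptide (also called Acp70A), which lowers the mated female's receptivity and raises egg laying, had counts of 2 and 1 in FRT19A, 133 and 50 in W1118, 107 and 18 in point mutants, and 2 and 232 in the deletion mutant. Mst57Db, a male-specific secreted peptide gene, had 2 and 4, 1085 and 635, 756 and 629, and 1 and 1625 counts. Both were high and low in the same libraries as Acp36DE. Of the 33 such genes measured, the 32 in the pharate table summed to 251.9 and 149.4 CPM in FRT19A, 999.1 and 354.1 CPM in W1118, 679.6 and 356.5 CPM in point mutants, and 494.6 and 599.3 CPM in deletion mutants. The sum was thus not near 0 anywhere, but hdly and CG10433 had the highest mean levels and weigh most in it. Gene by gene, the 30 tested had a median log2 difference from FRT19A of 6.69 in W1118. It was 5.18 in the point mutant and 4.56 in the deletion mutant, beside member medians of 7.65, 6.00 and 6.64 in the same order. Between mutants and controls 30 were tested, 1 was called higher (hdly, log2 1.20, SE 0.21, edgeR adjusted p = 0.0146) and 0 lower, with a median of -0.03, where 10.9% of all genes were called. That gene stood at 74.4 to 304 CPM in every pharate library, the FRT19A ones included, and so did not share the members' near absence there. By likeness to the member sum over the 8 pharate libraries, the 10 non-members with the highest r of log2(CPM + 0.5), among 8344 genes, were Spn38F (0.98), CG43147 (0.98), Mst57Db (0.98), CG42481 (0.97), Mst57Da (0.95), lncRNA:CR44389 (0.94), Spec2 (0.94), CG17097 (0.94), lectin-30A (0.94) and Mst57Dc (0.94). Of these, Spec2 moved only between 12.1 and 16.4 CPM, and so was not near 0 in any pharate library.

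Of the 11 ejaculatory duct and bulb genes measured, Ebp and EbpII ranged most widely and were highest in W1118 replicate 2. Ebp, the ejaculatory bulb protein of the mating plug, had counts of 1 and 17 in FRT19A, 118 and 19127 in W1118, 3 and 446 in point mutants, and 5 and 3496 in the deletion mutant. EbpII had 1 and 3, 14 and 5273, 1 and 131, and 2 and 1151 counts. In each the 3 highest libraries came in the order seen for the sum of the 7 genes, with W1118 replicate 2 first, then deletion mutant replicate 2 and then point mutant replicate 2. Obp56g, an odorant-binding protein gene from the seminal fluid list, had 3497 counts in W1118 replicate 2 and 592 in deletion mutant replicate 2, and 1 to 132 counts in the other 6 pharate libraries. The other 9 genes of the list did not follow that order. Est-6 was also highest in W1118 replicate 2, at 6.62 CPM, but next in FRT19A replicate 2. EbpIII stood at 212.6 and 270.0, 183.1 and 169.0, 85.9 and 169.2, and 65.4 and 150.8 CPM in the same order, highest in FRT19A replicate 2, and Bbd at 65.4 to 168.9 CPM in every pharate library. Of 9 duct and bulb genes tested, 6 were called higher in PE than in SE libraries (20.1% of genes) and 0 lower (12.5%), and 0 were called between mutants and controls (10.9%), by edgeR with Benjamini-Hochberg adjustment. The part of ejaculatory bulb tissue in the level of the 7 genes was not tested.

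Testis RNA did not go with the seminal fluid genes. The 40 testis and sperm genes summed to 1373 and 254.3 CPM in FRT19A, 2441 and 234.7 CPM in W1118, 2164 and 1359 CPM in point mutants, and 2931 and 1096 CPM in the deletion mutant. FRT19A replicate 1 and deletion mutant replicate 1 were thus rich in testis RNA with hardly any seminal fluid RNA, and W1118 replicate 2 was the reverse. The sperm tail gene dj stood at 50.0 and 1.97, 76.7 and 1.84, 65.8 and 44.5, and 99.8 and 40.9 CPM in the same order, and all 40 testis genes had a count in deletion mutant replicate 1. In each group 36 to 39 of the 40 testis genes were higher in the SE library. The 45 seminal fluid genes had no such common direction. In W1118, 30 of them were higher in the SE library and 15 in the PE library. The point mutant had 28 and 17, and the deletion mutant 2 and 43. FRT19A, where these genes were near 0, had 9 and 24. The transcription factor prd, which is needed for accessory gland development, had 2 and 0 counts in FRT19A, 310 and 10 in W1118, 36 and 51 in point mutants, and 5 and 72 in the deletion mutant. Of the other 4 factors listed for the gland, Hr39 stood at 91.9 to 118.2 CPM, dve at 51.5 to 156.4 CPM and Abd-B at 5.28 to 27.2 CPM in all pharate libraries, FRT19A included, and Lim1 at 0.261 to 2.44 CPM.

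**Figure D4:**
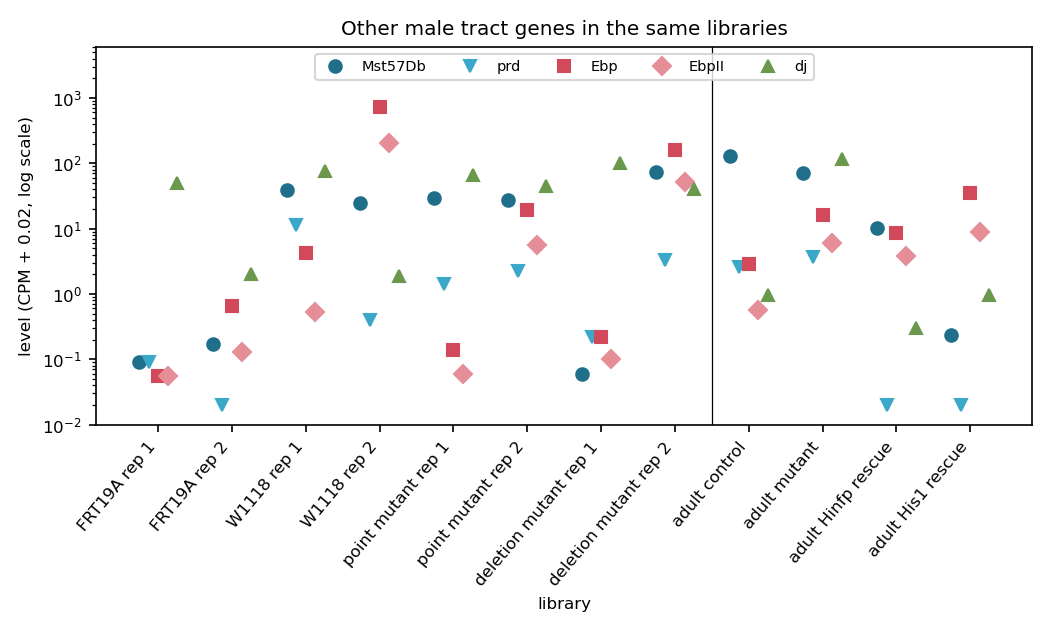
CPM + 0.02 (log scale) of Mst57Db, prd, Ebp, EbpII and dj in the 12 libraries, with the symbols of a library set slightly apart. Ebp reaches 732.2 CPM in W1118 replicate 2, Mst57Db is near 0 in FRT19A and in deletion mutant replicate 1, and dj is at 50.0 and 99.8 CPM in FRT19A replicate 1 and deletion mutant replicate 1.

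In adult guts seminal fluid RNA was high in the control and the mutant and low in both rescues. With 1 library per genotype these differences have no replicate check and no test. The 47 genes summed to 985.5 CPM in the FRT19A control, 602.2 CPM in the Hinfp2 mutant, 47.1 CPM in the Hinfp rescue and 24.9 CPM in the His1 rescue. The sum was 1.64-fold lower in the mutant than in the control, 20.9-fold lower in the Hinfp rescue and 39.5-fold lower in the His1 rescue. The adult control has the strain name of the pharate control that was near 0, with 985.5 CPM beside 5.05 and 7.07 CPM. The pharate and adult tables were made separately by the authors, and the stages differ as well. In that contrast, stage and table cannot be told apart.

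Acp36DE had 5753 counts in the adult control, 3512 in the mutant, 143 in the Hinfp rescue and 15 in the His1 rescue, or 283.8, 195.0, 7.95 and 0.824 CPM. Acp53Ea had 1395, 808, 62 and 3 counts, and Acp62F 1183, 390, 11 and 4. SP had 390, 231, 28 and 0 counts. For these 4 genes each rescue was below the mutant and the mutant below the control.

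Of 42 members with at least 10 counts in the mutant or the control, 13 were at least 2-fold lower in the mutant and 5 at least 2-fold higher, beside 11.4% and 33.1% of all genes. The higher ones were Acp24A4, Acp65Aa, Sfp60F, Sfp87B and Sfp93F. In the Hinfp rescue 37 of 42 were at least 2-fold lower than in the control and 4 higher, beside 11.8% and 10.5% of genes. In the His1 rescue 37 of 42 were lower and 4 higher, beside 10.5% and 11.8% of genes. The same 4 genes were higher in both rescues: Acp24A4, Sfp24Bb, Sfp60F and Sfp87B. The median log2 ratio of the members to the control was -0.57 in the mutant, -4.09 in the Hinfp rescue and -5.71 in the His1 rescue, with genes at 0 set to 3 counts, and that of all genes was 0.30, 0.0049 and 0.011. The 3 ratios share the control library, so they are given side by side. Set against the mutant instead, the Hinfp rescue had 36 of 41 members at least 2-fold lower and 1 higher (30.3% and 7.71% of genes), and the His1 rescue 37 lower and 2 higher (29.2% and 8.35% of genes). Between the rescues, 15 of 19 members were at least 2-fold lower in the His1 rescue and 3 higher (3.25% and 5.35% of genes).

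The 4 members at least 2-fold higher in the rescues belonged to the group highest in W1118 replicate 2. Sfp60F had 8 counts in the adult control, 158 in the mutant, 63 in the Hinfp rescue and 175 in the His1 rescue. Sfp87B had 12, 33, 49 and 121 counts, Acp24A4 had 7, 13, 13 and 26, and Sfp24Bb had 2, 5, 11 and 39. The 7 genes together summed to 1.48, 11.7, 7.95 and 20.5 CPM, while the other 38 seminal fluid genes summed to 981.4, 577.5, 39.0 and 4.23 CPM. In the His1 rescue Sfp60F, Sfp87B and Sfp24Bb made up 73.8% of the member counts, as they led in W1118 replicate 2.

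**Figure D5:**
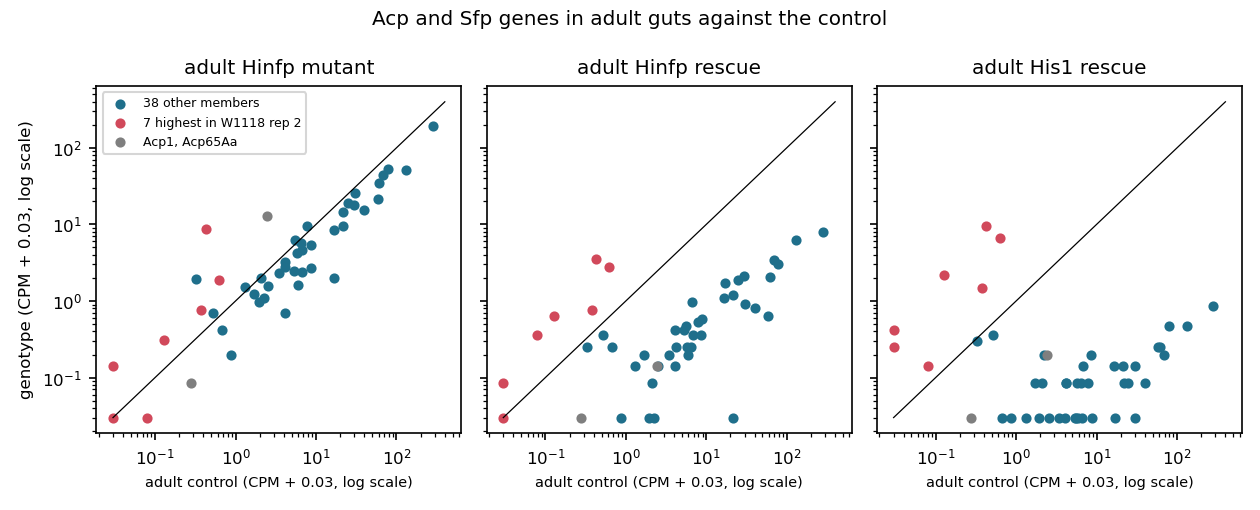
CPM + 0.03 of each member in the adult mutant, Hinfp rescue and His1 rescue against the adult control (log axes), with the line of equal level. In both rescues 37 of 42 members with at least 10 counts lie at least 2-fold below the line, and Acp24A4, Sfp24Bb, Sfp60F and Sfp87B, among the red genes, lie above it.

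The genes of other tissues moved differently in the adult set. The 40 testis genes summed to 215.8 CPM in the adult control, 3937 CPM in the mutant, 170.6 CPM in the Hinfp rescue and 182.7 CPM in the His1 rescue. The control therefore held much seminal fluid RNA and little testis RNA, and the mutant held both. Ebp had 58, 290, 156 and 649 counts in the same order, highest in the His1 rescue, as Sfp60F and Sfp87B were. The gland factor prd had 52 and 65 counts in the control and the mutant and 0 in each rescue, while Hr39 stayed at 64.8 to 81.5 CPM and dve at 43.8 to 89.6 CPM over the 4 libraries. The part of accessory gland, ejaculatory bulb or testis tissue in these values was not tested.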

How the data were processed

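Members and gene lists were chosen with earlier results of these data known. The authors deposited read counts per gene and TPM values for 8 pharate libraries, and counts with log2 fold changes for 4 adult libraries, per the file headers. STAR 2.5.3a and featureCounts 1.5.2 (pharate) or 1.6.2 (adult), on BDGP6 and dm6, are named per the submitters' processing notes. Library preparation is given as ribosomal depletion in 1 label field and as poly-A selection in another. The deposited log2 values and 112 further per-sample columns were not used for any result printed here. Coordinates came from the Ensembl release of BDGP6.

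Over all genes passing filterByExpr (minimum count 10), TMM-scaled counts went through the two-sided quasi-likelihood F test of edgeR 4.0.16 (R 4.3.3), adjusted by Benjamini and Hochberg's method at 0.05. DESeq2 1.42.0 was the alternative. Adult differences needed 10 counts and a 2-fold ratio. CPM and TPM are not molecules per cell. The mutant and PE fits were also run on simulated counts with 1 spread for all genes and no library effect. That setting differs from these libraries, so the run does not show how the fits behave on them. Replicate numbers, which carry the SE or PE tag, paired the libraries: the PE minus SE difference had r = 0.65 to 0.85 between groups. Values in every library are given for the 8 highest pharate and 5 highest adult members, called members and 6 fixed genes, in the text, the heat map or as group sums.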

Additional observations from a re-analysis of the deposited data

Results flagged for a closer look

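In 34 groups of 4 libraries (16 members with values in every library, as controls and as mutants, and the member sums), 1 library stood far from the other 3 in 18 cases. Chance gives about 1 in 20 groups when the 4 values come from 1 population, which does not hold here: the controls mix 2 strains, of which FRT19A was near 0, the groups share the same libraries, and the 16 members include the 7 genes chosen for their peak in W1118 replicate 2, whose control values had to stand apart. Among the controls W1118 replicate 1 stood apart for Acp53C14a at 72.8 CPM, Acp53C14b at 67.6 CPM, Acp53Ea at 86.2 CPM, Acp62F at 106.9 CPM and Acp65Aa at 56.9 CPM. W1118 replicate 2 stood apart for Acp24A4 at 55.1 CPM, Acp95EF at 21.4 CPM, Sfp24Ba at 11.8 CPM, Sfp24Bb at 104.2 CPM, Sfp24Bc at 8.50 CPM, Sfp24Bd at 2.87 CPM, Sfp60F at 238.4 CPM and Sfp87B at 173.4 CPM. Among the mutants deletion mutant replicate 2 stood apart for Sfp24Ba at 1.003 CPM, Sfp24Bb at 18.0 CPM, Sfp24Bc at 1.82 CPM, Sfp60F at 64.9 CPM and Sfp87B at 29.97 CPM. The cuticle gene Acp1 was higher in mutants than in controls among the SE libraries, up to 3.98 CPM, and lower in mutants among the PE libraries, where the highest control held 2.61 CPM, and that difference was not tested.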

How the results depend on the processing

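Between mutants and controls edgeR called 10.9% of all genes on the 8 libraries, 31.5% with the replicate block and 0 in SE libraries alone. The count of members called there was 0 in every fit except that on PE libraries alone, which gave 3 higher (22.7% of genes). It was 0 against FRT19A by edgeR and became 17 (point mutant), 19 (deletion mutant) and 19 (W1118) by DESeq2, and 3 for the deletion mutant with the replicate block. The block changed no other count of members called. Leaving out 1 library gave 4 to 6 members called between PE and SE libraries, beside 1485 to 3217 of all genes. It gave 0.37 to 2.43 for the mutant log2 fold change of Acp36DE and -7.48 to 3.20 for that of Sfp24Ba. The Acp36DE value turned to -0.22 in SE libraries alone and without both FRT19A libraries. The log2 ratio of the mutant to the control mean sum, -0.42, ranged from -1.01 to 0.33 when 1 library was left out and was 0.04 without the 7 genes highest in W1118 replicate 2. With TMM-scaled library sizes the sum was 804.1 CPM in W1118 replicate 1, 1033 CPM in the adult control and 537.3 CPM in the adult mutant. Without the cuticle genes it was 2.51 and 3.35 CPM in FRT19A and 589.3 CPM in the adult mutant. Without the 7 genes, a choice made after seeing the data, it was 156.0 CPM in W1118 replicate 2 and 590.5, 39.1 and 4.39 CPM in the adult mutant, Hinfp rescue and His1 rescue. The cause of these changes was not tested, beyond the removal of genes or libraries itself. Depth limits the 3 low pharate libraries, where most members had a few counts or none.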
